A study of Mus musculus with 4 samples.

Results

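The genes described here are 33 genes of MHC antigen presentation, chosen by symbol from the 31053 features of the 4 deposited single-cell count matrices, and all 33 were found. They comprise 20 genes of the class I pathway, 11 of the class II pathway and the costimulatory ligands Cd80 and Cd86. The cells came from C57BL/6J mice 6 to 8 weeks old, and every animal, controls included, received injections of 250 µg rabbit IgG, given 3 times weekly over 2 weeks. In the EBA groups that IgG was directed against the vWFA2 domain of collagen VII, the anchoring fibril protein, the transfer model of epidermolysis bullosa acquisita, a skin blistering disease, and in the IgG groups it was control rabbit IgG. Whole blood and ear skin were each loaded as a pool of cells from 3 mice, giving 4 libraries with 1 library per group: blood of IgG mice, blood of EBA mice, skin of IgG mice and skin of EBA mice. No test between groups is therefore possible, and a difference between libraries has no replicate check. Red cells of the blood were lysed, and the skin was taken apart by enzyme digestion. The series asks about neutrophils that enter the diseased skin.

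Class I molecules are made of a heavy chain and beta-2 microglobulin (B2m) and carry peptides cut by the proteasome, which the Tap transporter brings into the endoplasmic reticulum. Nearly all nucleated cells make them, and interferon raises them together with the inducible proteasome subunits. Class II molecules carry peptides from the endosome, are assembled on the invariant chain (Cd74), and are made mainly by B cells, dendritic cells, Langerhans cells and macrophages under the control of the transactivator Ciita.

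Of the 33 genes, 22 lie on chromosome 17 of GRCm38, in the MHC region between positions 33915899 and 37483552. The class II alpha chain gene H2-Aa is at chr17:34282744-34287823 on the minus strand. The beta chain genes H2-Ab1 (chr17:34257689-34269419) and H2-Eb1 (chr17:34305867-34316674) are on the plus strand. The class I heavy chain gene H2-K1 is at chr17:33996017-34000347 on the minus strand, H2-D1 at chr17:35262730-35267499 on the plus strand, and B2m at chr2:122147686-122153083. Shown are the stretches before the start sites of core class II and class I genes that enter the summed levels below. They are RefSeq sequence (GRCm38.p6), each 160 bases ending just before the RefSeq start and read along the gene, and the RefSeq start can differ from the gene model above. Capitals mark CCAAT on either strand (ATTGG when reversed) and TTTCNNTTC on either strand, which were the motifs searched.
H2-Aa, chr17:34287824-34287983, minus strand: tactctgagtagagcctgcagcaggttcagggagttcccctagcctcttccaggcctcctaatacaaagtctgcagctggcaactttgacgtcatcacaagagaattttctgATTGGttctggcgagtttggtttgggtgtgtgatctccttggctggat
H2-Eb1, chr17:34305707-34305866, plus strand: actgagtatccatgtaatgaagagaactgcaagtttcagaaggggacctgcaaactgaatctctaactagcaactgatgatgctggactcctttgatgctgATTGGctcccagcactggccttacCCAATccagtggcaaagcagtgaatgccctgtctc
H2-K1, chr17:34000348-34000507, minus strand: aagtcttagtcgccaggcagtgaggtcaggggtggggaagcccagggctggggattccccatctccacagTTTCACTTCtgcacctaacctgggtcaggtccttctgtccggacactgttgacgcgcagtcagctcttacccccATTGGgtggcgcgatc
H2-D1, chr17:35262934-35263093, plus strand: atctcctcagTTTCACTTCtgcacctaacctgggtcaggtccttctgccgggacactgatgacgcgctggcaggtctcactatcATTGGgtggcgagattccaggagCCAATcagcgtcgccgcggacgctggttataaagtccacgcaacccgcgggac
B2m, chr2:122147527-122147686, plus strand: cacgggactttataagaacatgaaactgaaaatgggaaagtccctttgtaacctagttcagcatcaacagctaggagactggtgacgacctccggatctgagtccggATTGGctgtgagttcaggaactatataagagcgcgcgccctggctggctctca
CCAAT was in the 250 bases before the start of 18 of the 27 genes that have an entry, against 33.8% of all 32851 promoters of the table. TTTCNNTTC was in 8 of 27, against 6.31% of all, and 7 of those 8 were class I heavy chain genes, H2-K1 and H2-D1 among them. Another motif, AACNNNTGATG, was in 4 of 27 (H2-DMb1, H2-DMb2, H2-Ob and H2-Eb1, all class II genes), against 0.539% of all. Near copies of each other are among these genes, such as H2-K1 with H2-D1 and H2-DMb1 with H2-DMb2, so their matches are not independent. The motifs were picked after the sequences had been looked at, and a match describes letters, not a binding site.

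After filtering, blood gave 4329 (IgG) and 3280 (EBA) cell barcodes and skin gave 5068 (IgG) and 4088 (EBA), with median depths of 3740 and 5731, and of 10645.5 and 9081.5 UMIs (unique molecular identifiers, 1 for each counted transcript). Totals ran from 22705634 to 90829463 UMIs, and libraries shared 4 to 9 kept barcodes, at most 0.208% of the smaller one. Cells were clustered within each tissue without these 33 genes and named from marker genes that hold none of them. However, skin cluster 16, the source of the Langerhans cell-like and dendritic cell-like classes, was split after a view that also showed H2-Ab1 and Cd74. Cd79a, of the B cell receptor, was at 3066 and 3288 CPM (UMIs of the gene for each 1000000 UMIs) in B cell-like cells of IgG and EBA blood, and Cd207, the Langerhans cell lectin, was at 18270 and 11169 CPM in Langerhans cell-like cells of IgG and EBA skin. In Ccr2-high monocyte-like cells of EBA blood the 8 neutrophil markers, none at 0, summed to 160248 CPM and the 9 monocyte markers to 4242 CPM, against 8063 and 8141 CPM in IgG blood. In neutrophil-like cells of EBA blood the same sums were 388271 and 839 CPM, and in those of IgG blood 119626 and 306 CPM. A level is the CPM of a gene over the summed UMIs of all barcodes of a class, and intervals are exact 95% intervals that cover counting error only, not the variation between mice. Several class I heavy chain genes (H2-K1, H2-D1, H2-Q4, H2-Q6, H2-Q7, H2-Q10, H2-T22 and H2-T23) and the pair H2-DMb1 and H2-DMb2 are near copies of each other, so reads could be split between them and their single values are uncertain. H2-DMa and Tapbp each overlap another gene model on the same strand.

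The class II genes separated the cell classes by more than 3 orders of magnitude. Summed over H2-Aa, H2-Ab1, H2-Eb1 and Cd74, the level was 82992 CPM (82031 to 83962) in Langerhans cell-like cells of IgG skin and 64702 CPM (64055 to 65353) in those of EBA skin. Dendritic cell-like cells of skin followed with 56601 CPM in IgG and 47454 CPM in EBA. Skin monocyte-like cells had 37354 CPM in IgG, from 20 barcodes, and 11688 CPM in EBA. B cell-like cells of blood had 23201 and 26241 CPM, and macrophage-like cells of skin had 5551 and 9089 CPM. Structural cells of skin were near the bottom, with 17.3 CPM (13.8 to 21.4) and 15.3 CPM (13.4 to 17.5) in fibroblast-like cells of IgG and EBA skin.

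**Figure D1:**
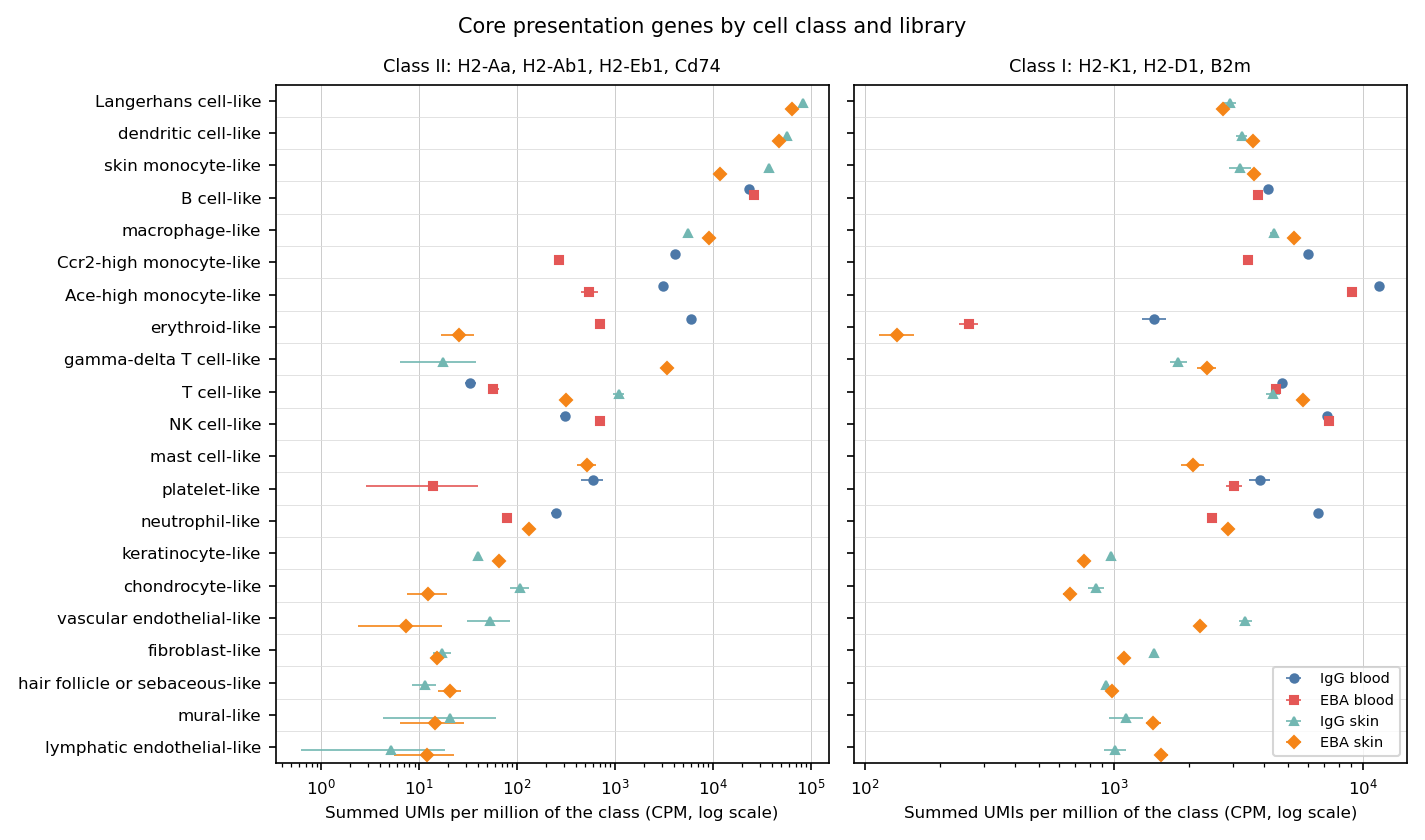
Summed level of 4 class II genes (left) and 3 class I genes (right) in each cell class (rows) and library (symbols), in CPM on a log axis, with exact 95% counting intervals. Class II runs from 82992 CPM in Langerhans cell-like cells of IgG skin to 5.13 CPM in lymphatic endothelial-like cells of IgG skin, while class I spans a narrower range.

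Nearly all class II RNA of blood was in B cell-like barcodes. They held 94.7% of the H2-Aa UMIs of IgG blood and 94.9% of those of EBA blood, and 94.6% and 94.3% of the Cd74 UMIs. In skin it was shared between classes. Langerhans cell-like and dendritic cell-like barcodes of IgG skin held 40.7% and 40.6% of the H2-Aa UMIs, and those of EBA skin 24.8% and 29.4%, beside 24.1% in skin monocyte-like and 18.2% in macrophage-like barcodes. Skin monocyte-like barcodes numbered 299 in EBA skin.

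The helpers of class II loading were not distributed alike. Ciita, the master regulator of class II genes, was at 306 and 203 CPM in B cell-like cells of IgG and EBA blood, 198 and 328 CPM in Langerhans cell-like cells, and 115 and 103 CPM in dendritic cell-like cells. It had 0 UMIs in macrophage-like cells of IgG skin, where a floor of 3 counts is 3.72 CPM, and 8.30 CPM in those of EBA skin. H2-DMa, a chain of the peptide exchange factor DM, followed the class II chains, with 868 and 893 CPM in Langerhans cell-like, 465 and 569 CPM in B cell-like, and 118 and 149 CPM in macrophage-like cells (IgG, then EBA). H2-Oa and H2-Ob encode DO, the inhibitor of DM, and were highest in B cell-like cells. H2-Ob was at 464 and 388 CPM there, and at 11.7 and 18.6 CPM in Langerhans cell-like cells, whose class II chains were at higher levels. H2-DMb2 was at 411 and 494 CPM in B cell-like cells, and its near copy H2-DMb1 at 129 and 92.6 CPM, whereas Langerhans cell-like cells had 125 and 174 CPM of H2-DMb2 and 635 and 565 CPM of H2-DMb1. Ctss, the protease cathepsin S that trims the invariant chain, was highest in macrophage-like cells (1907 and 2776 CPM) and was also high in Ace-high monocyte-like cells (1767 and 1647 CPM).

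**Figure D2:**
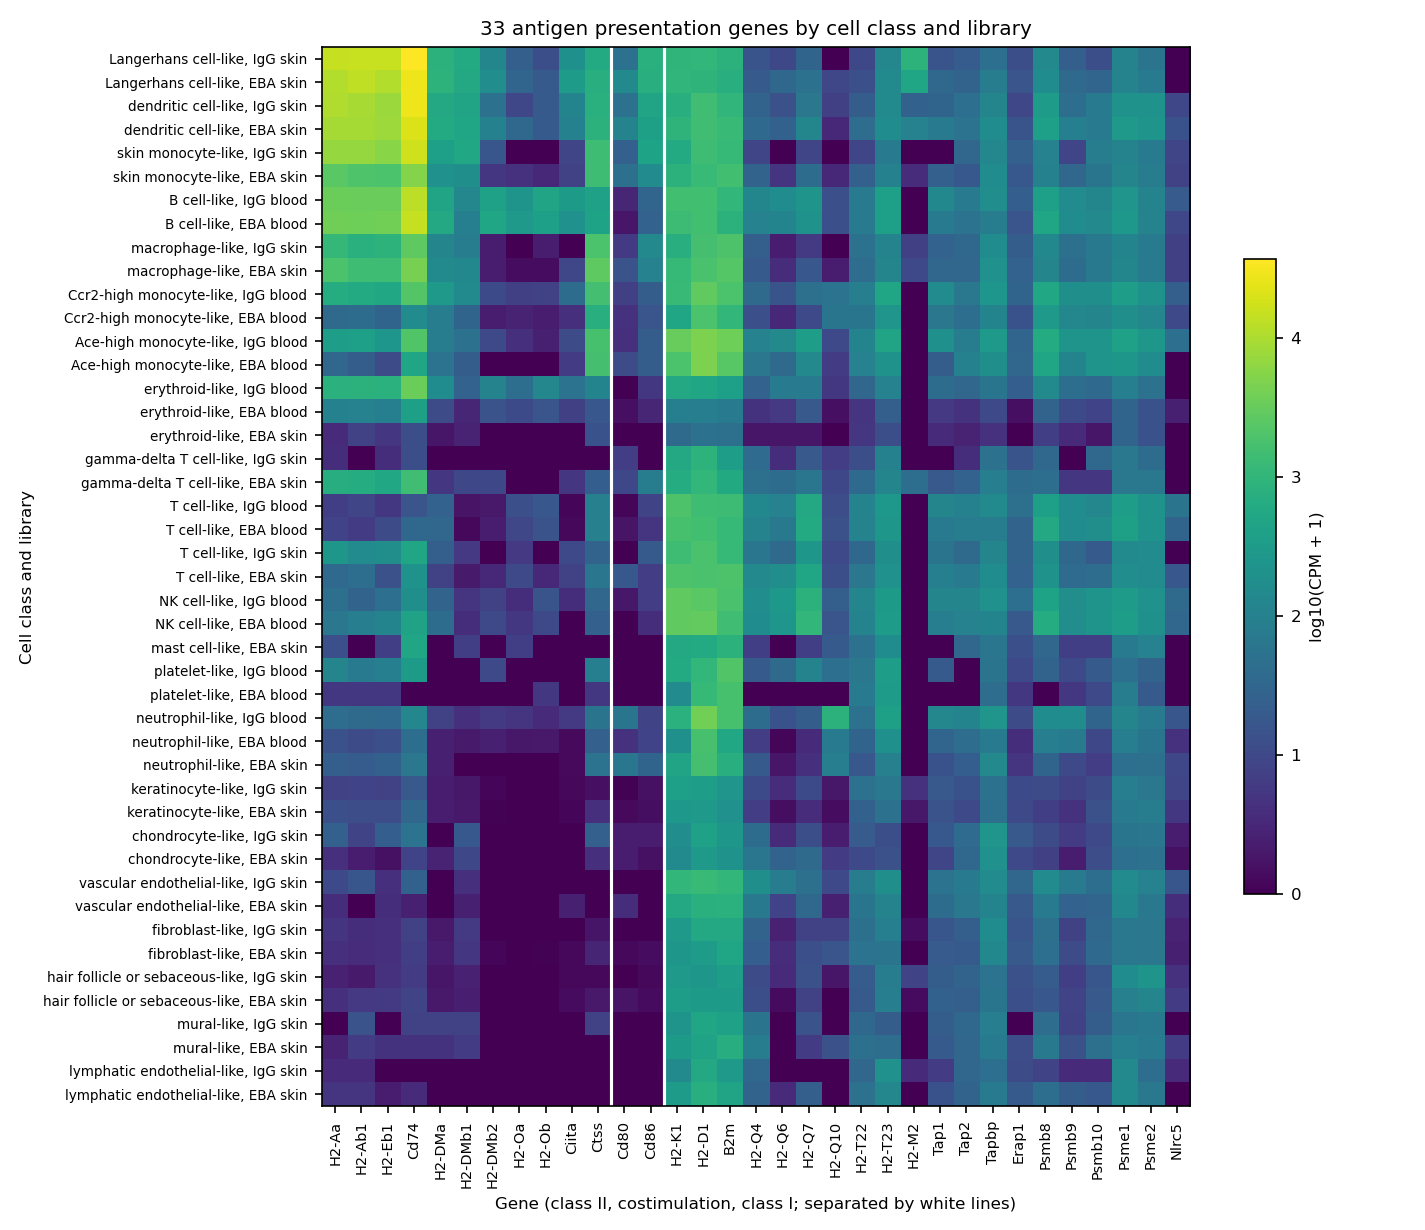
Level of each of the 33 genes (columns) in each cell class and library (rows), as log10(CPM + 1) on the colour scale. The class II block at the left is bright in Langerhans cell-like, dendritic cell-like, skin monocyte-like and B cell-like rows, and the class I columns H2-K1, H2-D1 and B2m are bright in nearly every row.

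The class I genes H2-K1, H2-D1 and B2m were found in every class, their sum over a range of less than 2 orders of magnitude. Summed over H2-K1, H2-D1 and B2m, the level was highest in Ace-high monocyte-like cells of blood (11653 CPM in IgG and 9046 CPM in EBA) and in NK cell-like cells (7207 and 7328 CPM). It was 975 and 761 CPM in keratinocyte-like cells, and lowest in erythroid-like cells, at 262 CPM in EBA blood and 135 CPM in EBA skin. Several other class I genes, such as H2-Q7 and Tap1, were at 0 CPM in at least 1 class. H2-M2, a non-classical class I heavy chain, was another. It was at 886 CPM in Langerhans cell-like cells of IgG skin and 482 CPM in those of EBA skin, at 25.1 and 106 CPM in dendritic cell-like cells, and had no UMI in any blood class. H2-Q10 was at 862 CPM in neutrophil-like cells of IgG blood, which held 77.9% of that library's H2-Q10 UMIs. The next highest class of that library, Ccr2-high monocyte-like cells, had 55.0 CPM. H2-Q7 was highest in NK cell-like cells, at 880 and 1044 CPM.

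For a comparison of 2 libraries within a class, the ratio of CPM was divided by the median ratio of all genes measured in both, and this relative ratio is given as fold. Genes count as measured where the sums held at least 10 UMIs together and the higher level was at least 10 CPM. A gene counts as called, higher or lower, where the fold was at least 2 and its interval excluded 1. The share of all measured genes called in that direction is given beside each first count. Counts on the CPM ratio as it is, under other settings, or of a single gene over comparisons, have no such share beside them.

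Class II genes were lower in the monocyte-like classes of EBA blood than in those of IgG blood. The name Ccr2-high monocyte-like is uncertain in EBA, where 197 of 275 barcodes had 5% or more of their UMIs in neutrophil markers. In that class 10 of 28 measured genes were called lower in EBA than in IgG blood, where 6.29% of all genes were. None was called higher, where 10.1% were. With no division by the median ratio 17 were lower, the median of all genes being shifted by -0.41 on the log2 scale. The 10 included 7 of the 8 measured class II genes. H2-Aa was at 666 CPM in IgG and 36.9 CPM in EBA, 13.6-fold lower (11.9 to 15.5). H2-Ab1 was at 635 and 39.6 CPM (12.1-fold lower), H2-Eb1 at 535 and 29.0 CPM (13.9-fold lower), and Cd74 at 2221 and 160 CPM (10.5-fold lower, 9.83 to 11.2). Ciita went from 39.7 to 3.33 CPM, 8.99-fold lower (5.59 to 14.8), H2-DMb1 from 155 to 28.6 CPM, 4.09-fold lower, and H2-DMa from 294 to 82.7 CPM, 2.69-fold lower. Of the class I genes, H2-Q7 (48.0 and 9.14 CPM), H2-Q6 (14.6 and 2.35 CPM) and H2-Q4 (36.9 and 12.1 CPM) were called lower. H2-K1 was at 1271 and 487 CPM, 1.97-fold lower (1.86 to 2.08), and B2m, H2-D1 and Nlrc5, the class I transactivator, were not called.

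The class II RNA of Ccr2-high monocyte-like cells sat in few barcodes, more so in EBA. With each barcode thinned to 1000 UMIs, 24 of 140 IgG barcodes (17.1%, 11.3 to 24.4) and 6 of 275 EBA barcodes (2.18%, 0.805 to 4.69) carried 5 or more of the 4 class II transcripts. Markers of several other cell types moved with the difference. In EBA the neutrophil markers were higher (8063 CPM in IgG and 160248 CPM in EBA), and so were the platelet markers (1554 and 4500 CPM) and the erythroid markers (259 and 6794 CPM). Of the barcodes, 136 of 141 in IgG and 78 of 275 in EBA had under 5% of their UMIs in neutrophil markers. Among those alone, a limit chosen after the values were seen, the class II sum was 4069 CPM (3963 to 4177) in IgG. In EBA it was 665 CPM (621 to 712). There 10 genes were called lower, not all the same as before, and the share of all genes called is not given. On the log2 scale H2-Aa was then at -2.56, H2-Ab1 at -2.39, H2-Eb1 at -3.03, Cd74 at -2.30 and Ciita at -2.25, all called lower. H2-DMb1 (-0.86) and H2-DMa (-0.54) were not called there, while Nlrc5 (-1.48), not called in the whole class, was called lower. Dendritic cell markers were lower in EBA. Cd209a was at 118 CPM in IgG and 2.84 CPM in EBA, and Flt3 at 32.0 and 9.76 CPM. The 35 of 141 IgG barcodes with a Cd209a or Flt3 UMI held 72.5% of the class's class II UMIs, at 10160 CPM. Without such barcodes, a split chosen after the values were seen, the class II sum was 1571 CPM (1495 to 1650) in IgG and 277 CPM (264 to 290) in EBA. A barcode without such a UMI need not be free of dendritic cell RNA. The class was also made of different clusters, 137 of the 141 IgG barcodes coming from 1 cluster and 270 of the 275 EBA barcodes from another, and the median depth was 9490 and 22927 UMIs. The part of these in the difference was not tested.

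Ace-high monocyte-like cells, the patrolling monocytes of blood, showed the same direction from fewer cells (109 IgG and 41 EBA barcodes). Of 26 measured genes, 8 were called lower, where 2.26% of all genes were, and none higher, where 2.81% were. H2-Ab1 was at 386 CPM in IgG and 21.2 CPM in EBA (17.6-fold lower, 6.78 to 65.0), H2-Eb1 at 257 and 10.6 CPM (23.3-fold lower, 6.36 to 194), H2-Aa at 351 and 31.9 CPM (10.6-fold lower, 4.82 to 29.3) and Cd74 at 2127 and 483 CPM (4.25-fold lower, 3.44 to 5.32). Of the 103 class II UMIs in EBA, 83 were in 1 barcode, and without it the sum was 112 CPM in place of 547 CPM. In IgG the highest barcode held 14.7% of the class II UMIs, and none of the 109 barcodes had a Cd209a or Flt3 UMI. Tap1, a chain of the peptide transporter, went from 199 to 21.2 CPM (9.03-fold lower, 3.44 to 33.6), H2-Q6 from 141 to 37.2 CPM and H2-Q7 from 350 to 143 CPM. Nlrc5 was at 45.8 CPM in IgG and had 0 UMIs in EBA, 2.78-fold lower with the 0 set to a floor of 3 counts. H2-D1 was at 4681 and 4659 CPM.

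In B cell-like cells none of 31 measured genes was called in either direction, where 1.08% of all genes were called higher and 2.42% lower. Cd74 was at 12999 CPM in IgG and 14721 CPM in EBA (1.42-fold higher, 1.41 to 1.44), H2-Eb1 at 3401 and 4040 CPM (1.49-fold higher) and Ciita at 306 and 203 CPM (1.20-fold lower, 1.10 to 1.30). H2-K1 was at 1531 and 1347 CPM and B2m at 1043 and 878 CPM. Nlrc5 was at 19.6 and 8.31 CPM (1.87-fold lower, 1.25 to 2.91). Of the EBA barcodes, 518 of 803 came from 1 cluster, which held 325 of the 2077 IgG barcodes.

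**Figure D3:**
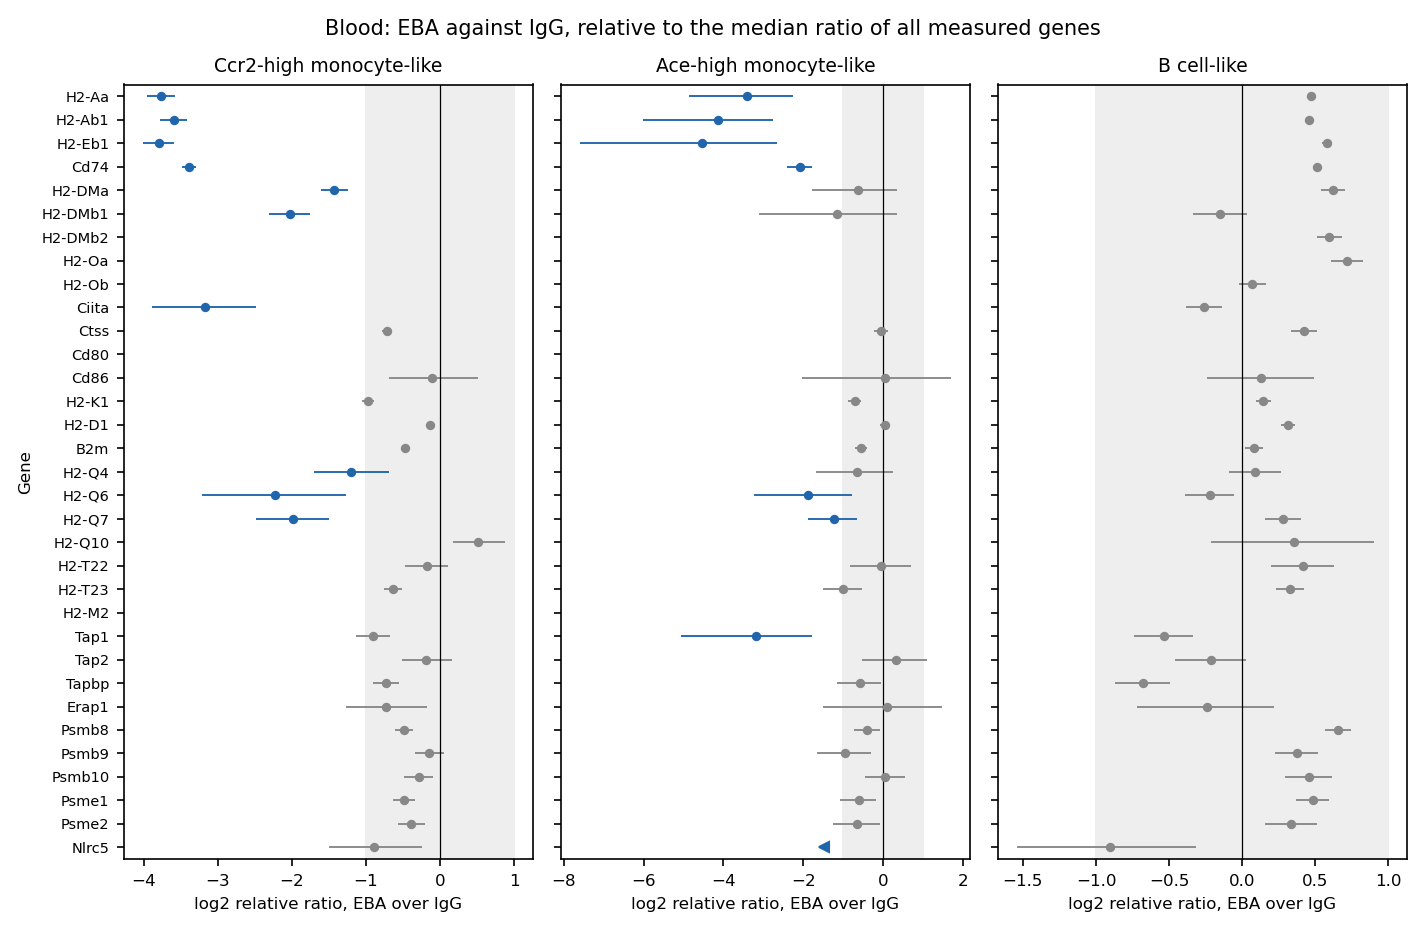
Log2 relative ratio of EBA over IgG blood for each measured gene (rows) in Ccr2-high monocyte-like, Ace-high monocyte-like and B cell-like cells, with exact 95% counting intervals, the grey band marking less than 2-fold either way and blue marking genes called lower. The triangle is a gene with 0 UMIs in EBA set at a floor of 3 counts, and each panel has its own axis range. In both monocyte-like classes H2-Aa, H2-Ab1, H2-Eb1 and Cd74 lie well to the left, and in B cell-like cells no gene is called.

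T and NK cell-like cells of blood kept the class I core within 2-fold. In T cell-like cells 2 of 25 genes were called higher in EBA, where 1.94% of all genes were, and none lower, where 2.52% were. These were Cd74 (14.9 and 34.4 CPM) and H2-Eb1 (4.50 and 10.2 CPM), and 3 of the 654 EBA barcodes held 84.7% of the class II UMIs. Without those 3 barcodes the EBA sum was 8.83 CPM in place of 57.5 CPM, and the IgG sum without its own 3 highest was 20.4 CPM in place of 33.5 CPM. Under a 5% limit on mitochondrial UMIs Cd74 was lower in EBA (-0.56 on the log2 scale). In NK cell-like cells 3 of 26 were called higher (H2-Ab1, H2-Eb1 and Cd74), where 1.95% of all genes were, and 1 lower, the peptide trimming enzyme Erap1 (46.3 and 18.3 CPM), where 3.69% were. In EBA 3 NK cell-like barcodes held 99.6% of the class II UMIs, the highest of them with 54 UMIs of the B cell gene Cd79a. Without those 3 the EBA sum was 3.22 CPM in place of 703 CPM, and the IgG sum without its own 3 highest was 31.2 CPM in place of 310 CPM. With no doublets removed Cd74 was slightly lower in EBA (-0.11 on the log2 scale). H2-K1 was at 2848 and 2817 CPM in NK cell-like cells and at 1945 and 1776 CPM in T cell-like cells.

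B cell markers stood beside the class II RNA of platelet-like and erythroid-like sums, and their part in it was not tested. In platelet-like cells 6 of 12 genes were called lower in EBA (H2-Aa, H2-Eb1, Cd74, Ctss, H2-K1 and H2-Q7), where 11.7% of all genes were, and none higher, where 11.6% were. Of the 64 class II UMIs in IgG, 61 were in 1 barcode with 17 Cd79a UMIs. H2-K1 was at 619 CPM in IgG and 161 CPM in EBA (3.06-fold lower, 2.01 to 4.75), and B2m at 2180 and 1734 CPM. With barcodes weighted equally 1 gene was called. In erythroid-like cells 2 of 27 were called lower, H2-DMa and H2-Q6, where 7.69% of all genes were, and none higher, where 18.7% were. On the CPM ratio as it is all 27 were lower, since the median of all genes was itself shifted by -2.36 on the log2 scale. The class II sum was 5984 CPM in IgG (25 barcodes) and 698 CPM in EBA (258 barcodes), beside 899 and 102 CPM of Cd79a.

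Neutrophil-like cells, the cells the series is about, were compared between the skin and blood of EBA mice. IgG skin held 1 such barcode, so no skin control was possible. Of 21 measured genes 4 were called higher in skin, where 27.4% of all genes were, and 7 lower, where 26.5% were, so neither count stands far from that of all genes. On the CPM ratio as it is, the split was 7 higher and 4 lower. All 7 lower genes belonged to class I, and these were the inducible proteasome subunits Psmb9 (79.8 CPM in blood and 9.24 CPM in skin, 10.2-fold lower, 7.10 to 15.1) and Psmb8 (90.7 and 29.2 CPM, 3.66-fold lower, 2.97 to 4.56), the proteasome activator Psme1 (88.0 and 45.3 CPM, 2.29-fold lower), the heavy chain H2-T23 (200 and 99 CPM, 2.38-fold lower), and Tap1, Tap2 and H2-T22. The costimulatory ligands went the other way. Cd80 was at 3.47 CPM in blood and 61.4 CPM in skin, 15.0-fold higher (10.4 to 22.4), and Cd86 at 7.47 and 29.2 CPM, 3.32-fold higher (2.42 to 4.57). H2-K1 was at 194 and 473 CPM, 2.07-fold higher (1.94 to 2.22), and H2-Q4 at 5.79 and 18.8 CPM, 2.75-fold higher. H2-D1 was at 1730 CPM in blood and 1645 CPM in skin, and B2m at 557 and 755 CPM.

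Class II transcripts in skin neutrophil-like cells were few and spread out. The sum of the 4 genes was 132 CPM (120 to 145) at a median depth of 3016 UMIs. Among classes of the same library that should lack these genes, it was 517 CPM in mast cell-like (2433 UMIs) and 316 CPM in T cell-like cells (4902 UMIs). It was 65.5 CPM in keratinocyte-like (35686 UMIs), 25.3 CPM in erythroid-like (5900.5 UMIs) and 15.3 CPM in fibroblast-like cells (17431.5 UMIs). Not all such classes are given. The mast cell-like sum is not of the same kind. Of its 84 UMIs 81 were Cd74, against 211 of 444 in neutrophil-like cells, and 3 barcodes held 88.1%. Without those 3 it was 68.5 CPM, and the neutrophil-like sum without its own 3 highest was 118 CPM. The T cell-like sum without its 3 highest was 164 CPM. The source of the class II transcripts in skin neutrophil-like barcodes was not tested. The 5 highest of 875 barcodes held 14.6% of these UMIs, whereas in EBA blood 1 of 812 neutrophil-like barcodes held 369 of 745. Ciita had 1 UMI in skin and 3 in EBA blood. The 5 measured class II genes were not called. The median depth in blood was 9972.5 UMIs, and skin cells were freed by digestion, so tissue, digestion and depth cannot be told apart.

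In blood, neutrophil-like cells of EBA mice had lower levels of many of these genes than those of IgG mice, at a median depth of 9972.5 against 2403.5 UMIs. Of 24 measured genes 7 were called lower, where 11.9% of all genes were, and none higher, where 14.4% were. By the undivided CPM ratio 19 were lower, the median of all genes being shifted by -1.08 on the log2 scale. H2-Q10 was at 862 CPM in IgG and 77.4 CPM in EBA, 5.27-fold lower (4.79 to 5.80). Cd80 was at 58.3 and 3.47 CPM, 7.95-fold lower (5.19 to 12.4), so that the level in EBA skin (61.4 CPM) was near that in IgG blood. H2-Q6 was at 13.3 and 0.210 CPM (interval 7.05-fold to 269-fold lower, from 2 UMIs in EBA) and H2-Q4 at 40.0 and 5.79 CPM (3.27-fold lower). H2-Q7, Tap1 and Nlrc5 were the others called lower. H2-K1 was at 817 and 194 CPM, 2.00-fold lower (1.85 to 2.16) and just under the fold asked for, and H2-D1 was at 4035 and 1730 CPM (1.10-fold lower). Of the IgG barcodes 448 of 450 came from 1 cluster, while 326 and 478 of the 812 EBA barcodes came from 2 others. Both neutrophil comparisons use the EBA blood library, so they are not independent.

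**Figure D4:**
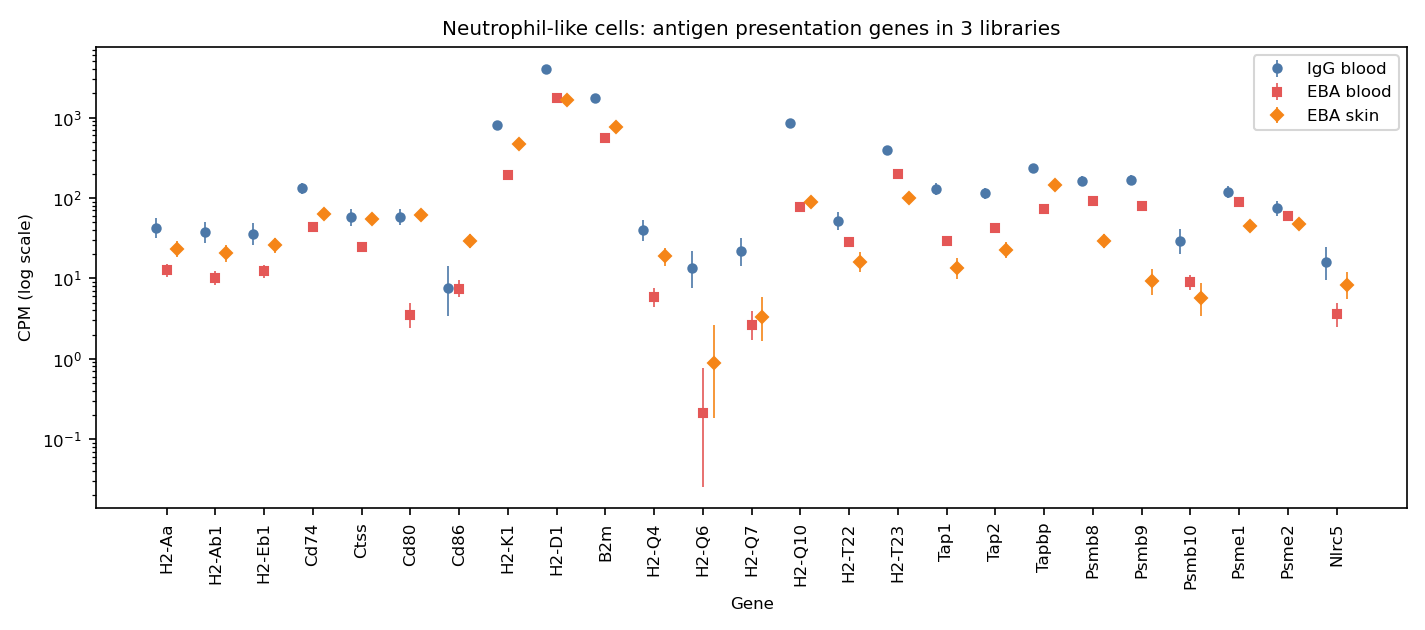
Level of antigen presentation genes in neutrophil-like cells of IgG blood, EBA blood and EBA skin, in CPM on a log axis with exact 95% counting intervals, for genes with 10 or more CPM in any of the 3. Cd80 is at 58.3, 3.47 and 61.4 CPM, and Psmb9 at 167, 79.8 and 9.24 CPM.

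Class II genes were called lower in skin monocyte-like cells of EBA mice, and none was called in macrophage-like cells. In the former 6 of 26 genes were called lower in EBA, where 3.67% of all genes were, and none higher, where 3.45% were. H2-Aa was at 7188 CPM in IgG and 2489 CPM in EBA (2.86-fold lower, 2.66 to 3.07), Cd74 at 17437 and 5215 CPM (3.31-fold lower, 3.16 to 3.46), H2-Ab1 at 6949 and 2091 CPM (3.29-fold lower) and H2-Eb1 at 5780 and 1893 CPM (3.02-fold lower). H2-DMb1 (533 and 186 CPM) and Cd86 (445 and 160 CPM) were also called lower. IgG skin had 20 such barcodes, all with 5 or more class II transcripts after thinning, while 109 of 284 EBA barcodes had that many (38.4%, 32.7 to 44.3). Of the dendritic cell markers, Mgl2 was at 239 CPM in IgG and 40.8 CPM in EBA, and Cd209a at 63.6 and 0.396 CPM. Flt3 was at 23.9 and 11.1 CPM, while Itgax was higher in EBA (23.9 and 61.0 CPM). A Cd209a or Flt3 UMI was in 6 of 20 IgG and 22 of 299 EBA barcodes. The part of these markers in the difference was not tested. In barcodes without a Cd209a or Flt3 UMI the class II sum was 36043 CPM in IgG and 10355 CPM in EBA. H2-K1, at 628 and 882 CPM, and B2m, at 1153 and 1526 CPM, were not called.

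Macrophage-like cells had 2 of 25 genes called higher in EBA, where 4.37% of all genes were, and none lower, where 4.36% were. These were H2-Q7 (4.96 and 16.6 CPM, 3.37-fold, 1.22 to 12.9) and Cd80 (4.96 and 13.8 CPM, 2.81-fold, 1.00 to 10.9), each from 4 UMIs in IgG. Under a 5% limit on mitochondrial UMIs neither was called, and 1 gene was called on the CPM ratio as it is, with free RNA subtracted and without barcodes holding a Cd209a or Flt3 UMI. The class II genes stayed below the fold asked for: H2-Aa was at 1117 and 1879 CPM (1.69-fold higher, 1.58 to 1.82), H2-Ab1 at 801 and 1405 CPM, H2-Eb1 at 887 and 1420 CPM and Cd74 at 2746 and 4385 CPM (1.61-fold higher, 1.54 to 1.68). After thinning, 24 of 112 IgG barcodes (21.4%, 14.2 to 30.2) and 108 of 295 EBA barcodes (36.6%, 31.1 to 42.4) had 5 or more class II transcripts. The 3 highest IgG barcodes held 28.7% of the class II UMIs. H2-K1 was at 747 and 1143 CPM, 1.54-fold higher (1.41 to 1.69).

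Langerhans cell-like cells, 42 barcodes in IgG and 40 in EBA, carried class II transcripts in every barcode. Cd80 was called higher in EBA (52.5 and 145 CPM, 2.39-fold, 1.43 to 4.22), 1 of 31 genes, where 3.5% of all genes were called higher. H2-M2 was called lower (886 and 482 CPM, 2.13-fold, 1.81 to 2.52), where 4.03% were. On the CPM ratio as it is, 2 were higher and none lower, and with classes set by marker UMIs alone H2-M2 was higher (2.16 on the log2 scale). H2-Aa was at 15033 and 10929 CPM (1.60-fold lower, 1.54 to 1.66) and Cd74 at 37383 and 29116 CPM (1.49-fold lower), while Ciita was at 198 and 328 CPM (1.43-fold higher, 1.08 to 1.91). In dendritic cell-like cells 3 of 32 genes were called higher in EBA, where 4.61% of all genes were, and none lower, where 4.1% were. These were H2-M2 (25.1 and 106 CPM, 3.71-fold, 2.02 to 7.45), H2-Oa (8.37 and 33.2 CPM, 3.5-fold, 1.22 to 13.7) and Tap1 (29.3 and 72.4 CPM, 2.18-fold, 1.20 to 4.22). Cd207 was at 33.5 CPM in IgG and 300 CPM in EBA in this class, so the level of this Langerhans cell marker moved with H2-M2, and its part in the difference was not tested. The migration receptor Ccr7 was at 655 and 1340 CPM. With both classes taken as the 1 cluster they were split from, H2-M2 was lower in EBA (-0.73 on the log2 scale).

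T cell-like cells of skin gave class II calls that rest on few barcodes. Of 26 genes, H2-Q6 (37.5 and 184 CPM, 4.59-fold) and H2-Q4 (61.0 and 140 CPM, 2.15-fold) were called higher in EBA, where 3.12% of all genes were. H2-Aa, H2-Ab1, H2-Eb1 and Cd74 were called lower, where 3.49% were. In IgG skin 3 of 54 barcodes held 96.6% of the class II UMIs, and without them the sum was 39.8 CPM in place of 1088 CPM. In EBA it was 316 CPM, and 164 CPM without the 3 highest, so the order of the libraries turned. With no doublets removed the direction turned for Cd74 (0.19 on the log2 scale), H2-Ab1 (0.16) and H2-Eb1 (0.28). B2m was at 1139 and 1966 CPM (1.61-fold higher, 1.41 to 1.85). In gamma-delta T cell-like cells 8 of 20 genes were called higher in EBA, where 6.03% of all genes were, and 1 lower, Psmb10, where 3.88% were. H2-Aa, H2-Ab1, H2-Eb1, Cd74, Cd86 and H2-M2 were among the 8, together with H2-Q6 and H2-Q7. Of the 781 class II UMIs in EBA, 778 were in 1 barcode with 152 UMIs of Cd207, and without it the sum was 14 CPM against 17.6 CPM in IgG.

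Against blood, skin T cell-like cells had less RNA of the inducible proteasome in both treatments. In IgG 12 of 28 genes were called lower in skin, where 9.54% of all genes were, and 4 higher (H2-Aa, H2-Ab1, H2-Eb1 and Cd74), where 16% were. In EBA 12 of 27 were called lower, where 18.1% were, and 4 higher (H2-Aa, H2-Ab1, Cd74 and Cd80), where 21.1% were. The EBA split on the CPM ratio as it is was 5 higher and 6 lower. Psmb9 went from 164 CPM in blood to 32.8 CPM in skin of IgG mice (5.85-fold lower, 2.83 to 14.6) and from 166 to 39.4 CPM in EBA mice (6.69-fold lower, 4.74 to 9.74). Psmb10 went from 131 to 18.8 CPM (8.19-fold lower) and from 178 to 41.7 CPM (6.76-fold lower). Psmb8 went from 387 to 188 CPM and from 574 to 214 CPM, and Psme1 from 361 to 145 CPM and from 390 to 175 CPM. The IgG skin sums were small, with 40 UMIs of Psmb8 and 7 of Psmb9 among 51 of the 3 inducible subunits. H2-T22, H2-Q7 and Ctss were also called lower in both. So was Nlrc5, which had 0 UMIs in IgG skin (4.78-fold lower with the 0 set to a floor of 3 counts). H2-K1, H2-D1 and B2m were not called in either. The class II calls turned with no doublets removed, Cd74 being lower in skin (-0.22 on the log2 scale in IgG and -0.92 in EBA). These comparisons reuse the libraries of those between treatments. The blood and skin T cell-like cells were clustered separately, and blood was not digested with enzymes, so tissue and digestion cannot be told apart.

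The UMIs of Psmb8, Psmb9 and Psmb10 as a share of those plus their constitutive counterparts Psmb5, Psmb6 and Psmb7 describe the same particle without a scaling between libraries. The share was 65.4% to 72.6% in the B, T, NK and monocyte classes and the neutrophil-like cells of IgG blood. In EBA blood it was 57.8% (56.7 to 59.0) in Ccr2-high monocyte-like cells against 69.0% (66.9 to 71.1) in IgG, and 53.8% (52.0 to 55.5) in neutrophil-like cells against 67.1% (63.4 to 70.8). In EBA skin neutrophil-like cells it was 21% (18 to 24.2). Skin T cell-like cells had 35.4% in IgG and 38.5% in EBA, against 71.2% and 73.2% in blood. Dendritic cell-like cells (45.9% and 51.0%) were higher than Langerhans cell-like cells (24.7% and 32.0%), and keratinocyte-like cells had 5.20% (4.97 to 5.44) and 4.28% (4.00 to 4.58). Vascular endothelial-like cells had 48.9% (41.4 to 56.4) in IgG and 27.6% (22.7 to 32.9) in EBA, while lymphatic endothelial-like cells had 3.05% (0.997 to 6.97) and 13.4% (10.4 to 16.8). The IgG and EBA intervals do not overlap in these last 2 classes, nor in the Ccr2-high monocyte-like, blood neutrophil-like and keratinocyte-like cells above. They cover counting error only, from 1 library each.

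**Figure D5:**
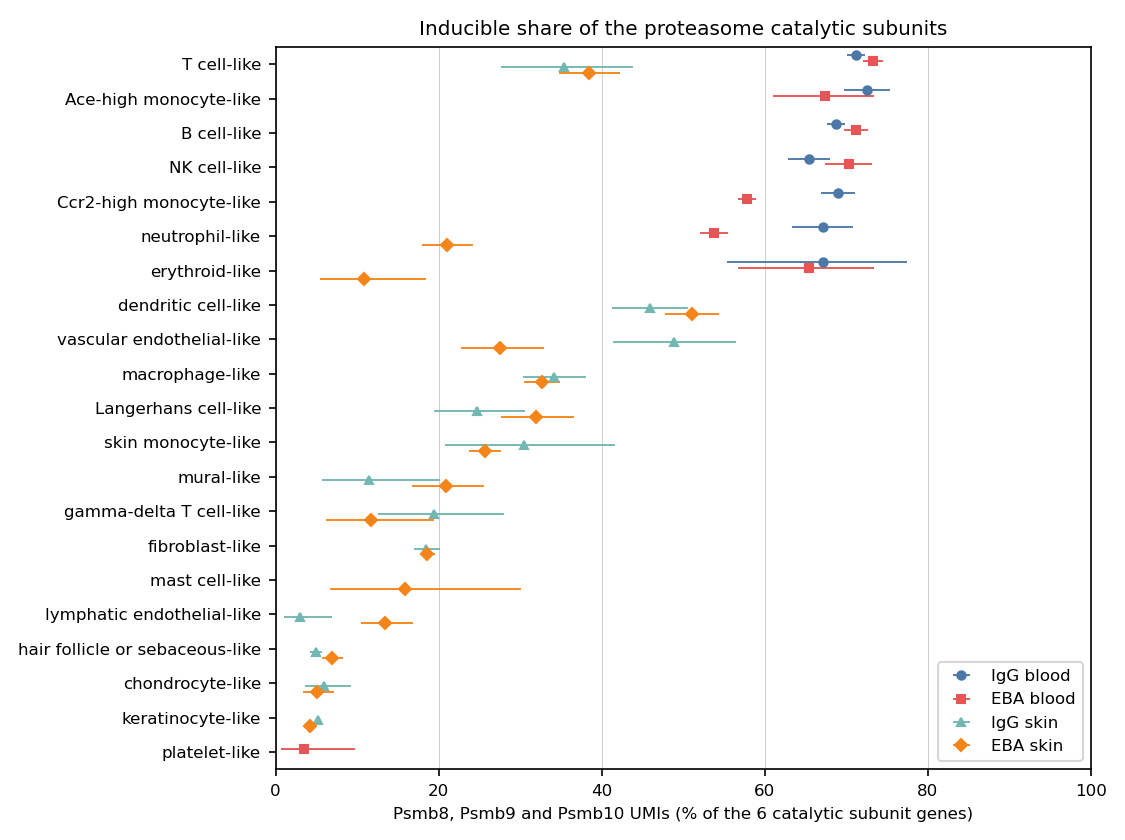
Share of inducible subunits (Psmb8, Psmb9 and Psmb10) among UMIs of the 6 proteasome catalytic subunit genes, in percent, by cell class (rows) and library (symbols), with exact 95% intervals. White blood cell classes lie above 50% in blood, neutrophil-like cells of EBA skin at 21%, and keratinocyte-like cells near 5%.

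In keratinocyte-like cells none of 16 genes was called, where 4.67% of all genes were called higher in EBA and 2.16% lower, and H2-K1 was at 380 and 268 CPM (1.31-fold lower) in IgG and EBA. Their class II sum was 39.6 and 65.5 CPM, of which 3 barcodes held 58.8% and 71.2%. Their clusters were not shared alike, with 1141 of 3242 IgG but 42 of 848 EBA barcodes in 1 cluster, and 24 and 250 in another. Hair follicle or sebaceous-like cells also had none of 15 called, where 3.02% and 4.62% of all genes were called higher and lower, and mural-like cells none of 13, where 3.86% and 5.9% were. In fibroblast-like cells H2-Q10 was called higher (6.91 and 15.3 CPM, 2.19-fold, 1.52 to 3.24), 1 of 16 genes, where 2.79% of all genes were called higher and 3.11% lower. H2-D1 was at 580 and 340 CPM there (1.73-fold lower, 1.65 to 1.81). One fibroblast-like cluster held 482 of 583 IgG and 357 of 754 EBA barcodes, and another 1 IgG and 158 EBA barcodes. The part of this in both differences was not tested. In chondrocyte-like cells, from ear cartilage, H2-Q6 and H2-Q7 were called higher, 2 of 21 genes, where 4.51% were. H2-Aa, H2-Eb1, Cd74 and Ctss were called lower, where 3.83% were, and 77 of the 83 class II UMIs in IgG were in 1 barcode. With classes set by marker UMIs alone Cd74 was higher in EBA (0.34 on the log2 scale).

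Vascular endothelial-like cells had 4 of 17 genes called lower in EBA, where 3.87% of all genes were, and none higher, where 4.06% were. These were the heavy chains H2-Q6 (84.6 and 7.42 CPM, 11.7-fold lower, 4.44 to 38.9) and H2-Q4 (191 and 69.8 CPM, 2.81-fold lower, 1.89 to 4.21) and the subunits Psmb9 (75.2 and 26.7 CPM, 2.89-fold lower) and Psmb8 (157 and 71.2 CPM, 2.26-fold lower). H2-K1 was at 1043 and 577 CPM (1.85-fold lower, 1.60 to 2.15). Lymphatic endothelial-like cells showed the opposite direction. Of 16 genes 3 were called higher, where 3.63% of all genes were called higher and 4.69% lower. They were Psmb8 (7.69 and 44.2 CPM, 5.08-fold, 1.59 to 25.9), Psmb9 (2.56 and 21.4 CPM, from 1 UMI in IgG) and H2-Q7. H2-Q7 had 0 UMIs in IgG and 22.8 CPM in EBA, 2.62-fold with the 0 set to a floor of 3 counts. These are 51 and 57 vascular and 47 and 41 lymphatic barcodes, and that the 2 classes differ in response was not tested.

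Over all 24 comparisons B2m, H2-D1 and Tapbp, the chaperone of peptide loading, were measured in every one and called in none. On the CPM ratio as it is, all 3 were over 2-fold lower in EBA in neutrophil-like and erythroid-like cells of blood. There B2m was at 1766 and 557 CPM in neutrophil-like and at 383 and 78.1 CPM in erythroid-like cells (IgG, then EBA). Tapbp was over 2-fold lower on that ratio also in Ccr2-high monocyte-like (252 and 114 CPM) and B cell-like cells of blood (174 and 86.6 CPM). H2-T22, Psme1 and H2-T23 were also measured in all 24 and called lower in 3, 3 and 2 of them, never higher. Nlrc5 was called lower in 4 of the 10 comparisons where it was measured, and higher in none. Those were neutrophil-like and Ace-high monocyte-like cells, EBA over IgG blood, and T cell-like cells, skin over blood, in both treatments. The Ace-high call and the T cell-like call of IgG mice rest on no UMI in the lower library. Such counts of a gene pool treatments and tissues from reused libraries. They have no share of all genes beside them, so whether these genes stand apart was not tested.

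Other genes of these pathways and of the interferon-gamma axis, which raises both classes, were counted from 3 lists of 16, 16 and 13 genes. These counts are read beside the shares of all genes called in the same comparison and direction. In Ccr2-high monocyte-like cells of blood 2 of 10 measured genes of the axis were lower in EBA, among them the chemokine Cxcl10 (37.6 and 3.95 CPM), and none higher, where 6.29% of all genes were lower. In Ace-high monocyte-like cells 3 of 9 were lower (2.26% of all genes), among them the transcription factor Irf1 (220 and 37.2 CPM). In neutrophil-like cells of blood 2 of 9 were lower (11.9% of all genes), among them Irf1 (406 and 69.8 CPM). In B cell-like cells none of 10 was called. In vascular endothelial-like cells 3 of 12 were lower (Cxcl9, Gbp2 and Irf1), where 3.87% of all genes were, and in dendritic cell-like cells 5 of 12 were higher (4.61% of all genes), led by Cxcl10 (2.09 and 59.3 CPM) and Irf8 (134 and 450 CPM). In skin monocyte-like cells Irf1 was lower (71.6 and 17.8 CPM) and Cxcl10 higher (7.95 and 68.1 CPM).

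Of the other class II genes, the lysosomal protease Ctsl was higher in EBA in Ccr2-high monocyte-like (36.9 and 103 CPM), skin monocyte-like (246 and 1865 CPM) and macrophage-like cells (1129 and 2678 CPM), and lower in Langerhans cell-like cells (84.5 and 25.4 CPM). Cd83, a surface protein that stabilises class II, was lower in Ccr2-high monocyte-like (11.1 and 0.741 CPM), Ace-high monocyte-like (141 and 21.2 CPM) and skin monocyte-like cells (588 and 127 CPM). In neutrophil-like cells of EBA mice 4 of 9 measured genes of the class II list were higher in skin than in blood, among them Ctsb (81.0 and 909 CPM) and Lgmn (2.00 and 33.4 CPM), and 2 were lower, where 27.4% of all genes were higher and 26.5% lower. Of the class I list 3 of 9 were higher there, near the same 27.4%, the chaperones Hspa5 (56.4 and 547 CPM), Canx (14.6 and 47.1 CPM) and Calr (40.1 and 102 CPM), and the heavy chain H2-T24 was lower (16.7 and 0.895 CPM). The same chaperone genes Hspa5 and Calr were higher in skin T cell-like cells than in those of blood, in both treatments.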

How the data were processed

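Single cells of whole blood and ear skin were profiled as 4 libraries, each a pool of 3 mice. The deposited values are UMI counts per gene and cell barcode, which the authors made with Cell Ranger 3.0.0 on mm10, and Seurat 3.0.0 and 3.1.0 are also named, per the submitters' processing notes. The counts were not normalised, and their filter on barcodes is not given in the sources used here.

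Barcodes with at least 200 genes and at most 10% mitochondrial UMIs were kept, and doublets were removed by Scrublet score at 0.8% for each 1000 barcodes. Each tissue was clustered without the 33 genes (2000 variable genes, 30 components, 15 neighbours, Leiden resolution 1), giving 18 blood and 28 skin clusters. These were named from 26 lists of 183 markers, after their marker and leading genes had been viewed, into 22 classes, and some stayed unnamed. Skin cluster 16 was split by resolution 2 clusters after a view that also showed H2-Ab1 and Cd74. Classes of at least 20 barcodes were compared by summed UMIs in 24 comparisons, with exact conditional 95% intervals for ratios, Poisson intervals for levels and Clopper-Pearson intervals for shares. All intervals and the floor of 3 counts cover counting error only. Shares of barcodes were taken after thinning to 1000 UMIs, leaving out shallower barcodes. No test was made, since each group is 1 library.

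The rule for genes named with values takes H2-Aa, H2-Ab1, H2-Eb1, Cd74, Ciita, H2-K1, H2-D1, B2m and Nlrc5 where measured, then called genes ranked by the interval bound nearest to 1. Some of these that were not called are given by the count alone, to keep the text short. The 33 genes and the lists were chosen with earlier results of these data known, and the motifs and the Cd209a and Flt3 split after the values or letters had been seen. Settings tried numbered 17, 3 of them chosen after seeing the data. Of the listed genes, H2-T10 and Ifi30 matched no row. The values of 1 listed gene are not reported here. Promoters came from RefSeq (GRCm38.p6), with 27 of 33 genes matched, and gene positions from GENCODE. Python 3.11.15, numpy 2.4.6, scipy 1.17.1, pandas 2.3.3 and scanpy 1.11.5 were used, and the ratio step was tested on simulated data.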

Additional observations from a re-analysis of the deposited data

Results flagged for a closer look

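In T cell-like cells, 2 class II genes differed between treatments in opposite directions in the 2 tissues. H2-Eb1 was higher in EBA than in IgG blood (1.48 on the log2 scale, relative to the median of all genes) and lower in EBA than in IgG skin (-3.90). Cd74 showed the same pattern, with 1.5 in blood and -1.22 in skin. The difference between the tissues was not tested, since each group is 1 library. In EBA blood 3 of 654 barcodes held 84.7% of the class II UMIs, and in IgG skin 3 of 54 barcodes held 96.6%.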

How the results depend on the processing

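Counts of called genes stayed within 1.5 times of the reported count in 211 cases, moved further in 62 and changed their leading direction in 11. Single genes kept their direction and moved little in 2109 cases, moved in 422 and reversed in 16. The cause of these changes was not tested. The counts below have no share of all genes beside them, and a lower fold or an undivided ratio can change the calls of all genes. They are read only against the reported counts, not as results about these genes.
With no doublets removed, log2 relative ratios turned for Cd74 in NK cell-like cells of blood (-0.11), T cell-like cells of skin (0.19) and T cell-like skin over blood (-0.92 in EBA and -0.22 in IgG). H2-Aa gave -0.64 and H2-Ab1 -0.43 for EBA skin over blood, H2-Ab1 -0.11 in NK cell-like cells, and H2-Ab1 0.16 and H2-Eb1 0.28 in T cell-like cells of skin. The class II median was 0.41 in T cell-like cells of skin and -0.59 for IgG skin over blood. Called genes then numbered 2 (NK), 1 (T blood), 4 (T skin), 6 (dendritic), 7 (lymphatic), 15 (neutrophil, EBA over IgG blood) and 8 (vascular).
With a 5% mitochondrial limit Cd74 in T cell-like cells of blood was at -0.56, and called genes numbered 0 (T blood), 9 (erythroid), 3 (hair follicle), 1 (keratinocyte) and 0 (macrophage).
With classes by marker UMIs alone, Cd74 was at 0.54 in T cell-like cells of skin and 0.34 in chondrocyte-like cells, H2-Aa at 0.53 in chondrocyte-like cells, H2-Ab1 at 0.44 in T cell-like cells of skin, and H2-M2 at 2.16 in Langerhans cell-like cells. Class II medians were 0.44 (T skin), -0.87 (T, IgG skin over blood) and 0.15 (chondrocyte). Called genes numbered 1 (B), 20 (Langerhans), 0 (T blood), 14 (T skin), 25 (T, IgG skin over blood), 3 (chondrocyte), 15 (dendritic), 5 (gamma-delta T), 2 (hair follicle) and 2 (keratinocyte). The monocyte subsets have no value there. With skin cluster 16 not split, H2-M2 in dendritic cell-like cells was at -0.73.
With a fold of 1.5, called genes numbered 13 (Ace-high), 6 (B), 17 (Ccr2-high), 4 (Langerhans), 7 (NK), 6 (T blood), 8 (dendritic), 6 (erythroid), 4 (fibroblast), 3 (hair follicle), 6 (keratinocyte), 5 (lymphatic), 8 (macrophage), 1 (mural), 15 (neutrophil, EBA over IgG blood), 16 (neutrophil, skin over blood) and 7 (vascular).
On the CPM ratio as it is they numbered 2 (B), 17 (Ccr2-high), 5 (dendritic), 27 (erythroid), 5 (lymphatic), 1 (macrophage), 19 (neutrophil, EBA over IgG blood) and 11 (neutrophil, skin over blood, 7 higher and 4 lower).
With barcodes weighted equally they numbered 1 (B), 4 (Langerhans), 1 (NK), 0 (T blood), 5 (dendritic), 4 (erythroid), 5 (hair follicle), 1 (keratinocyte), 6 (lymphatic), 15 (neutrophil, skin over blood) and 1 (platelet). With totals that leave out the most abundant genes they numbered 1 (B), 16 (Ccr2-high), 1 (Langerhans), 11 (erythroid), 1 (hair follicle) and 1 (keratinocyte). With free RNA subtracted they numbered 1 (T blood), 1 (macrophage), 12 (neutrophil, EBA over IgG blood) and 16 (neutrophil, skin over blood).
A minimum of 500 genes gave 0 (erythroid), and a minimum of 1 CPM gave 2 (hair follicle) and 5 (keratinocyte). Without barcodes holding Cd209a or Flt3, macrophage-like cells had 1, and without those holding platelet transcripts, neutrophil-like cells had 16 (skin over blood).
No paired analysis was possible because each group is 1 library. The variation between mice was not measured.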
